A study of Mus musculus with 12 samples.

Results

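The genes described here are 36 genes listed for macrophages, Kupffer cells and the myeloid granulocyte lineage, and not all are specific to these cells. The 36 genes were followed through bulk RNA-seq of liver parenchymal cells. They were taken from a fixed list of symbols, and all 36 were matched among the 53715 genes of the count table. The list holds 4 pan-leukocyte genes, 9 macrophage genes, 5 Kupffer cell genes and the 3 chains of complement C1q. It also holds 4 Fc receptor and adaptor genes, 9 neutrophil genes, the transcription factor Spi1 and the haem oxygenase Hmox2. The 9 neutrophil genes are called granule genes below, and those other than S100a8 and S100a9 encode granule proteins. All 36 passed the filter on low counts, which kept 17779 genes.

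RNA was sequenced from 3 groups of 4 libraries, all from C57BL/6JOlaHsd mice. Hepatoblasts were isolated from embryonic livers at E14.5 by magnetic selection for the surface protein Dlk1, after red cells had been lysed and Fc receptors blocked with an antibody to CD16/CD32, and went straight into RNA isolation. Diff. hepatocytes were the same kind of Dlk1-selected cells, plated on fibronectin in a differentiation medium that contains dexamethasone and kept in culture for 4 days. Mature hepatocytes came from collagenase-perfused livers of adult males aged 8 to 12 weeks and were lysed without culture. The embryonic livers were pooled before selection. Selection for Dlk1 was the only step named for the embryonic cells that would leave macrophages behind, and none of the 3 preparations is described as depleted of them. The labels were checked with the hepatoblast marker Dlk1, which stood at 2461 to 4199 CPM (a library's counts on the gene scaled to a common depth and for library composition) in hepatoblasts, 88.3 to 99.1 in Diff. hepatocytes and 3.17 to 6.42 in mature hepatocytes.

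Kupffer cells are the resident macrophages of the liver sinusoid. They clear bacteria, senescent red cells and debris from the portal blood, and they carry a set of receptors that sets them apart from other macrophages, among them Clec4f, Vsig4, Timd4 and Marco. In the embryo the liver is also the main site of blood formation, so hepatoblasts lie among erythroblasts, the macrophages that serve them and maturing granulocytes. Granulocyte precursors make their granule proteins in order, primary granule enzymes such as myeloperoxidase and elastase at the promyelocyte stage and secondary granule proteins such as lactoferrin later.

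The libraries held between 19581551 and 25216977 counts on genes. Hepatoblast replicate 1 stood apart from the other 3 hepatoblast libraries in these genes: it had the highest CPM of its group for 35 of the 36 (34.0% of all tested genes), with a median log2 ratio to the mean of the other 3 of 2.07, against -0.063 over all tested genes. The summed CPM of 10 erythroid genes moved with it, at 2686 in that library and 317 to 533 in the other 3. Among Diff. hepatocytes, replicate 1 was highest for 30 of the 36 (32.7%), with a median log2 ratio of 1.67, and replicates ran in the order 1, 2, 4, 3 from high to low for 25 of them (5.34%). The erythroid sum there lay between 6.84 and 24.7. Mature replicates 1 and 3 both exceeded replicates 2 and 4 for 27 of the 36 (17.4%). In bulk RNA, fewer cells of a type and less RNA per cell cannot be told apart, so every level below is a level of the whole preparation.

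**Figure D1:**
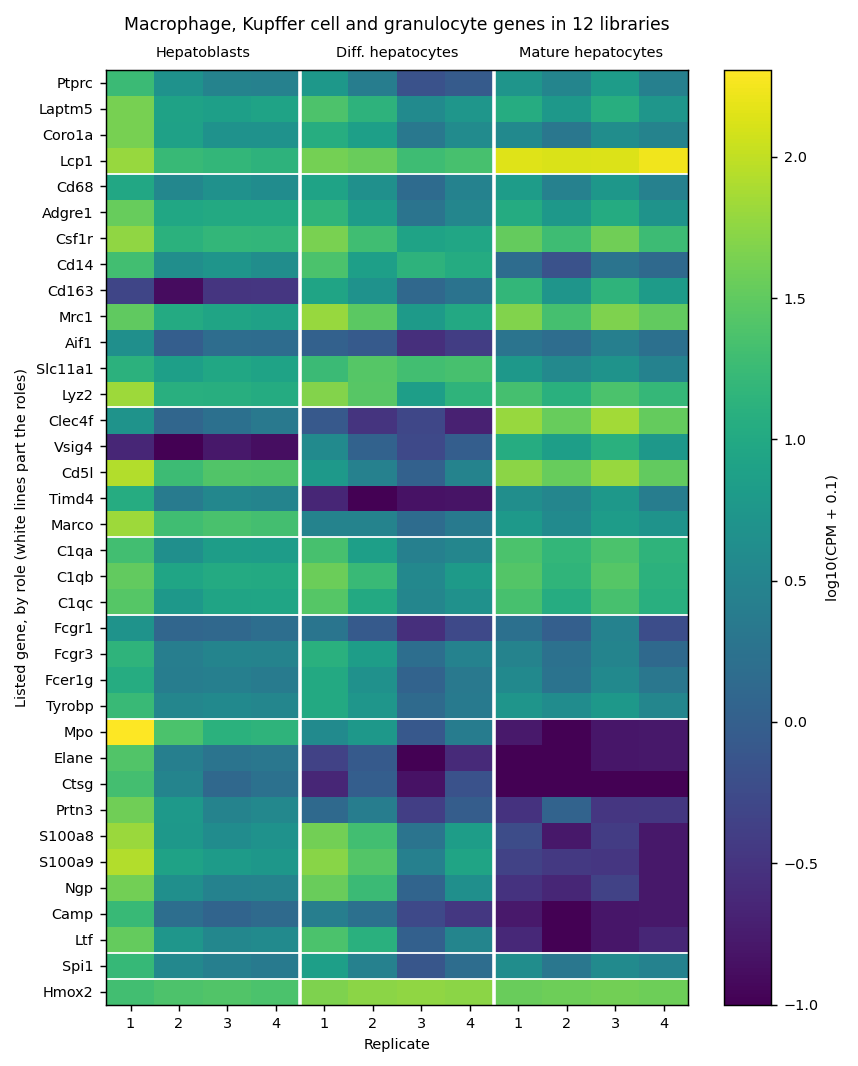
Heat map of the level of the 36 genes (rows, ordered by role) in the 12 libraries (columns), as log10 of CPM plus 0.1. Hepatoblast replicate 1 is the highest hepatoblast library for 35 of the 36 genes, and the 9 granule genes are near 0 in all 4 mature libraries.

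**Figure D2:**
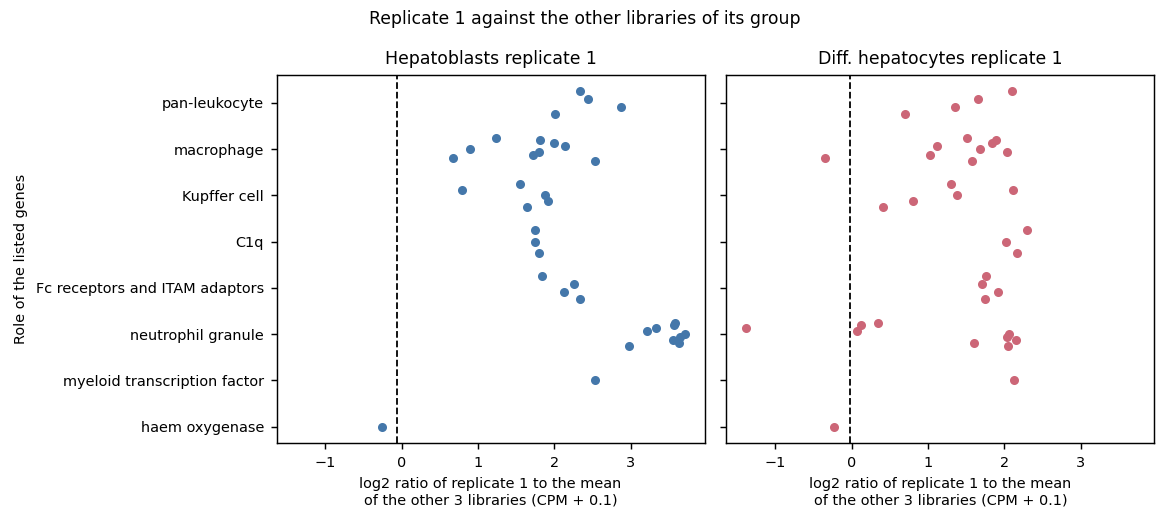
The log2 ratio of replicate 1 to the mean of the other 3 replicates (x axis, CPM plus 0.1), for each gene (point) by role (y axis), in hepatoblasts and in Diff. hepatocytes, with the dashed line at the median of all tested genes. In hepatoblasts the ratio reaches 3.71 and its median is 3.56 for the granule genes and 1.64 for the Kupffer cell genes.

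Calls were made at an adjusted p under 0.01 and a log2 fold change beyond 1 in either direction, with edgeR's quasi-likelihood test over all 12 libraries and Benjamini-Hochberg adjustment over all tested genes. In Diff. hepatocytes against hepatoblasts, 4 of the 36 genes rose (14.9% of all tested genes did), 8 fell (14.0%) and 24 were not called. In mature hepatocytes against hepatoblasts, 4 rose (20.1%), 12 fell (24.7%) and 20 were not called. In Diff. hepatocytes against mature hepatocytes, 6 were higher (20.2%), 5 were lower (15.6%) and 25 were not called. The median log2 fold changes of the 36 were -0.32, -0.72 and 0.02 in that order, beside -0.01, -0.15 and 0.09 over all tested genes. As shares of the 36 genes, the counts of genes that rose lay below the background in all 3 comparisons, and the counts that fell lay above it in the 2 comparisons with hepatoblasts. Without hepatoblast replicate 1 and Diff. replicate 1 together, the counts of higher and lower genes were 5 and 6, then 6 and 11, then 9 and 12. Every pair of these comparisons shares a group of 4 libraries, so their values are set side by side and not taken as separate evidence.

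The calls fell into a few roles. All 5 Kupffer cell genes were called between Diff. hepatocytes and hepatoblasts, 1 higher (14.9% of all tested genes) and 4 lower (14.0%). All 9 granule genes fell in mature hepatocytes against hepatoblasts (24.7%). None of the 3 C1q genes, none of the 4 Fc receptor and adaptor genes and not Spi1 was called in any of the 3 comparisons with all 12 libraries, although C1qa was without a single library, as given below. A p that misses the threshold does not show that their levels were equal, and the spread among libraries within a group was wide for all of them.

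C1qa, C1qb and C1qc encode the chains of C1q, which recognises antibody-coated and dying cells, and tissue macrophages are their main source. They lie side by side on the minus strand of mouse chromosome 4 (GRCm38), at chr4:136880129-136886187 for C1qb, chr4:136889804-136893065 for C1qc and chr4:136895917-136898803 for C1qa. C1qa was at 20.2, 4.33, 6.86 and 6.63 CPM in hepatoblast replicates 1 to 4, at 21.7, 7.23, 2.62 and 3.20 in Diff. hepatocytes, and at 23.2, 15.6, 23.7 and 14.0 in mature hepatocytes. The high hepatoblast and Diff. hepatocyte libraries, replicate 1 in each, lay within the mature range, and the groups overlapped in all 3 comparisons. Adjusted p values were 0.876 for Diff. hepatocytes against hepatoblasts, 0.148 for mature hepatocytes against hepatoblasts and 0.120 for Diff. against mature hepatocytes. Without Diff. replicate 1, C1qa was called lower in Diff. than in mature hepatocytes, at -2.13 on the log2 scale (adjusted p 0.00343, edgeR). Without hepatoblast replicate 1 and Diff. replicate 1 together it was also called higher in mature hepatocytes than in hepatoblasts, at 1.68 (adjusted p 0.000324).

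C1qb followed with 32.9, 8.60, 10.5 and 10.2 CPM in hepatoblasts, 37.0, 17.4, 3.38 and 6.31 in Diff. hepatocytes, and 26.7, 14.4, 27.4 and 13.4 in mature hepatocytes. C1qc was at 27.0, 5.76, 8.58 and 8.72 CPM in hepatoblasts, at 27.3, 10.2, 3.15 and 4.63 in Diff. hepatocytes, and at 22.3, 11.2, 21.9 and 12.3 in mature hepatocytes. Within the hepatoblasts and within the Diff. hepatocytes, all 3 chains were highest in replicate 1. Over all libraries they were lowest in Diff. replicates 3 and 4. Adjusted p values of C1qb and C1qc were between 0.425 and 0.954. Without hepatoblast replicate 1 and Diff. replicate 1 together, C1qc was called lower in Diff. than in mature hepatocytes, at -1.48 (adjusted p 0.0033, edgeR).

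The stretch upstream of the C1qb and C1qc starts is shown because the transcription factor PU.1, the product of Spi1, binds purine-rich sites with a GAGGAA core. Capitals mark GAGGAA or its reverse complement TTCCTC, searched on both strands of RefSeq windows of 300 bases, 250 before and 50 after each gene's start (GRCm38.p6). The stretch for C1qb is chr4:136886201-136886450 (minus strand) and that for C1qc is chr4:136893066-136893164 (minus strand), which ends 151 bases before the RefSeq start so that no annotated exon is included.
C1qb: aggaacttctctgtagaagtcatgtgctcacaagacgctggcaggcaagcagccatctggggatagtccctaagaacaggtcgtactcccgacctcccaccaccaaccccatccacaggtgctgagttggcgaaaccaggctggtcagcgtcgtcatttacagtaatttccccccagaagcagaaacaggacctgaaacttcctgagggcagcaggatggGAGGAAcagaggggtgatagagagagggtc
C1qc: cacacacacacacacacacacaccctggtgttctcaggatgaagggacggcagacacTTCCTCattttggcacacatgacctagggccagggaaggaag
Windows were at hand for 30 of the 36 genes (all but Adgre1, C1qa, Cd14, Csf1r, Spi1 and Tyrobp), and 19 of these (63.3%) held GAGGAA, beside 28.3% of all 32851 windows. The longer form GAGGAAG, which contains the shorter, was in 12 of the 30 (40.0%) beside 13.6% of all windows. A match of letters is a description of the window and not a bound site.

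The Kupffer cell genes did not follow C1q. Clec4f, Cd5l, Timd4 and Marco fell in Diff. hepatocytes against hepatoblasts while Vsig4 rose, and in mature hepatocytes Clec4f and Vsig4 were far above the embryonic level while Marco was below it. Their median log2 fold changes were -3.61 for Diff. hepatocytes against hepatoblasts, 0.26 for mature hepatocytes against hepatoblasts and -3.86 for Diff. against mature hepatocytes.

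Clec4f, a C-type lectin receptor specific to Kupffer cells in the mouse (chr6:83644542-83656187), was at 4.87, 1.13, 1.59 and 2.09 CPM in hepatoblast replicates 1 to 4. It was at 0.735, 0.215, 0.400 and 0.0986 CPM in Diff. hepatocytes and at 62.6, 34.3, 69.7 and 33.9 in mature hepatocytes. The Diff. levels rested on 17, 5, 9 and 2 counts. The 3 groups did not overlap, with mature hepatocytes highest and Diff. hepatocytes lowest. The log2 fold change was -2.69 ± 0.60 (SE; adjusted p 0.00158, edgeR) in Diff. hepatocytes against hepatoblasts, 4.37 ± 0.45 (adjusted p 1.13e-06) in mature hepatocytes against hepatoblasts and -7.07 ± 0.57 (adjusted p 1.59e-07) in Diff. against mature hepatocytes. Without hepatoblast replicate 1 the first 2 were -2.08 and 4.97, and without Diff. replicate 1 the first and last were -3.29 and -7.66. The first was not called with the fold threshold built into the test (edgeR's glmTreat, adjusted p 0.0136).

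Vsig4, the complement receptor of the immunoglobulin superfamily that takes up C3-coated particles, was nearly absent from hepatoblasts, with 4, 0, 2 and 1 counts. It reached 3.67, 0.990, 0.444 and 0.887 CPM in Diff. hepatocytes and 11.1, 7.06, 12.4 and 5.65 in mature hepatocytes. The groups did not overlap and rose from hepatoblasts through Diff. to mature hepatocytes. By summed counts scaled to depth it was 27.4 times as high in Diff. hepatocytes as in hepatoblasts (95% counting interval 12.9 to 69.3) and 163 times as high in mature hepatocytes (78.6 to 407). The edgeR log2 fold changes were 4.62 ± 0.80 (adjusted p 0.000232), 7.21 ± 0.77 (1.77e-06) and, for Diff. against mature hepatocytes, -2.59 ± 0.55 (0.00102). They were 5.35 and 7.92 for the first 2 without hepatoblast replicate 1, and 3.67 and -3.54 for the first and last without Diff. replicate 1.

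Cd5l, a secreted protein that keeps macrophages alive, was at 84.9, 18.4, 25.6 and 25.2 CPM in hepatoblasts, 5.92, 2.71, 0.977 and 2.96 in Diff. hepatocytes and 54.3, 34.3, 63.0 and 32.2 in mature hepatocytes. Diff. hepatocytes lay below both other groups without overlap, whereas hepatoblasts and mature hepatocytes overlapped. The log2 fold change against hepatoblasts was -3.61 ± 0.56 (adjusted p 9.78e-05, edgeR), or -2.86 without hepatoblast replicate 1, and against mature hepatocytes -3.86 ± 0.57 (adjusted p 4.70e-05). Mature hepatocytes against hepatoblasts was not called (adjusted p 0.647).

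Timd4 encodes a phosphatidylserine receptor of resident macrophages that binds dying cells (chr11:46810800-46844332). It was at 11.2, 2.30, 3.34 and 3.05 CPM in hepatoblasts and at 4.18, 3.21, 5.66 and 2.42 in mature hepatocytes, while the 4 Diff. libraries held 3, 0, 1 and 1 counts. Its level per depth was 87.8 times as high in hepatoblasts as in Diff. hepatocytes (95% counting interval 37.4 to 271) and 69.5 times as high in mature hepatocytes (29.4 to 216). Timd4 was thus close to absent from the cultured cells and present at overlapping levels in both fresh preparations. The edgeR log2 fold changes were -6.34 ± 0.74 (adjusted p 7.87e-06) and -5.98 ± 0.75 (1.16e-05), and mature against hepatoblasts was not called (adjusted p 0.512). Without hepatoblast replicate 1 the first was -5.54, and without Diff. replicate 1 both were larger, at -7.12 and -6.76.

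Marco, a scavenger receptor for bacteria and particles, was at 66.1, 19.8, 22.6 and 20.8 CPM in hepatoblasts, 2.90, 2.88, 1.38 and 2.17 in Diff. hepatocytes and 5.83, 3.72, 6.59 and 4.97 in mature hepatocytes. All 3 groups were separate, with hepatoblasts far above the others. It fell by 3.79 ± 0.42 on the log2 scale in Diff. hepatocytes (adjusted p 4.66e-06, edgeR) and by 2.61 ± 0.39 in mature hepatocytes (adjusted p 4.53e-05), or by 3.16 and 2.0 without hepatoblast replicate 1. Diff. against mature hepatocytes was not called with all 12 libraries (adjusted p 0.0242), although the groups did not overlap, and was called lower, at -1.16, without hepatoblast replicate 1, which enters that comparison only through the shared estimate of spread (adjusted p 0.000517).

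**Figure D3:**
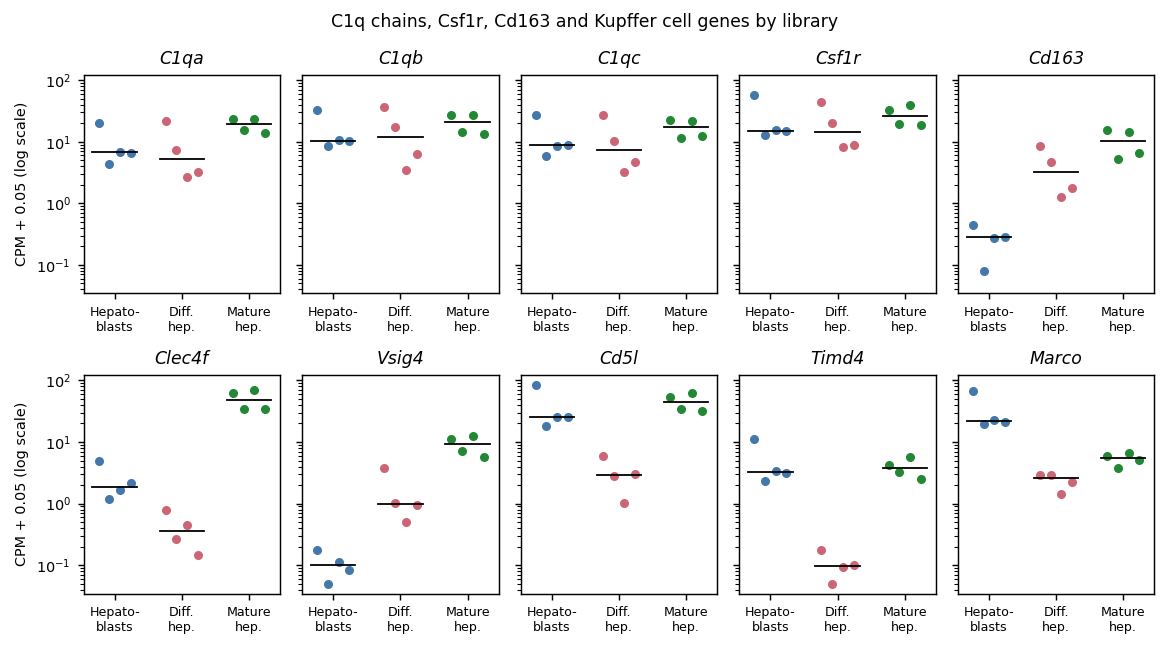
Level in CPM (y axis, log scale, 0.05 added) of the C1q, Kupffer cell and 2 macrophage genes in each library (points), with a line at the group median. Clec4f in mature hepatocytes lies between 33.9 and 69.7 CPM, above every hepatoblast and Diff. library, and Timd4 in Diff. hepatocytes rests on at most 3 counts per library.

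Counted over all 36 genes, the 4 libraries of Diff. hepatocytes lay above all 4 hepatoblast libraries for 4 genes (28.6% of all tested genes) and below them for 8 (28.8%). Mature hepatocytes lay above hepatoblasts for 5 (30.1%) and below for 13 (35.9%). Diff. hepatocytes lay above mature hepatocytes for 10 (32.4%) and below for 7 (29.2%). As shares of the 36 genes, 5 of these 6 counts lay below the share of all tested genes, and the 13 genes below hepatoblasts were at about that share.

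Among the 9 macrophage genes, Cd163, Slc11a1 and Cd14 were called in at least 1 comparison, each with its own pattern. Cd163, the receptor that takes up haemoglobin bound to haptoglobin, rested on 12, 1, 7 and 7 counts in hepatoblasts (0.387, 0.0299, 0.227 and 0.232 CPM). It reached 8.34, 4.69, 1.20 and 1.73 CPM in Diff. hepatocytes and 15.3, 5.26, 14.1 and 6.39 in mature hepatocytes, both above every hepatoblast library. The log2 fold change was 4.18 ± 0.72 (adjusted p 0.00024, edgeR) in Diff. and 5.53 ± 0.73 (adjusted p 1.37e-05) in mature hepatocytes against hepatoblasts, and the first was 3.53 without Diff. replicate 1. Diff. and mature hepatocytes overlapped and were not called apart (adjusted p 0.0494), except without Diff. replicate 1, where Diff. hepatocytes were lower, at -2.01 (adjusted p 0.0073).

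Slc11a1, the metal transporter of the phagosome known as Nramp1, showed a small spread among replicates. It was at 13.3, 7.37, 9.23 and 8.32 CPM in hepatoblasts, 17.9, 26.9, 19.9 and 21.7 in Diff. hepatocytes and 5.69, 3.47, 4.96 and 2.86 in mature hepatocytes. The 3 groups did not overlap and Diff. hepatocytes were highest, including replicate 3, which was low for most of the other macrophage genes. Log2 fold changes were 1.18 ± 0.22 (adjusted p 0.000488, edgeR), -1.17 ± 0.24 (0.000553) and, for Diff. against mature hepatocytes, 2.35 ± 0.24 (1.66e-06). The first was 0.84 and not called when libraries were scaled to their totals, and the second was -0.97 and not called without hepatoblast replicate 1. Neither was called with glmTreat.

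Cd14, the co-receptor for bacterial lipopolysaccharide, was at 20.1, 4.21, 5.18 and 4.04 CPM in hepatoblasts, 23.2, 7.19, 13.9 and 10.9 in Diff. hepatocytes and 1.37, 0.578, 1.75 and 1.24 in mature hepatocytes. Mature hepatocytes were lowest without overlap, and the other groups overlapped (adjusted p 0.240). Cd14 was, without hepatoblast replicate 1, called higher in Diff. hepatocytes than in hepatoblasts, at 1.63 on the log2 scale (adjusted p 0.00127, edgeR). The log2 fold change of mature hepatocytes against hepatoblasts was -2.75 ± 0.60 (adjusted p 0.000993, edgeR), or -1.85 without hepatoblast replicate 1. Diff. hepatocytes stood above mature hepatocytes by 3.47 ± 0.61 (adjusted p 0.000212).

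The 6 other macrophage genes were not called in any comparison with all 12 libraries. Csf1r, the receptor for the growth factor that macrophages depend on, was at 57.4, 12.7, 15.4 and 14.8 CPM in hepatoblasts, 44.2, 19.8, 8.22 and 8.92 in Diff. hepatocytes and 33.1, 19.1, 39.3 and 18.7 in mature hepatocytes, with adjusted p values of 0.523 to 0.843. Mrc1, the mannose receptor, was at 31.1, 10.5, 8.48 and 7.72 CPM, then 63.1, 29.6, 6.22 and 9.96, then 47.6, 21.2, 46.5 and 32.4 in the same order of groups. In both genes Diff. replicate 1 lay 5 or more times above Diff. replicate 3, and the groups overlapped. Without hepatoblast replicate 1 and Diff. replicate 1 together, Csf1r was called lower in Diff. than in mature hepatocytes, at -1.15 (adjusted p 0.00747, edgeR). In the same setting Mrc1 was called higher in mature hepatocytes than in hepatoblasts, at 2.04 (adjusted p 0.00111), beside 1.35 (adjusted p 0.0720) with all 12 libraries. Adgre1, which encodes the macrophage antigen F4/80, ranged from 9.20 to 34.8 CPM in hepatoblasts, 1.78 to 14.4 in Diff. hepatocytes and 4.84 to 10.9 in mature hepatocytes (adjusted p 0.0711, 0.144 and 0.665). Without Diff. replicate 1 it was called lower in Diff. hepatocytes than in hepatoblasts, at -2.07 (adjusted p 0.0079, edgeR). Cd68, a glycoprotein of macrophage lysosomes, had adjusted p values of 0.573, 0.639 and 0.916, and Lyz2, lysozyme M, of 0.947, 0.529 and 0.596. Aif1, the actin-binding protein Iba1, came nearest to a call, with 0.866 to 4.29 CPM in hepatoblasts, 0.178 to 0.951 in Diff. hepatocytes and 1.41 to 2.57 in mature hepatocytes and adjusted p values of 0.0115, 0.845 and 0.017. It was called lower in Diff. hepatocytes than in hepatoblasts without Diff. replicate 1 (-2.23) or hepatoblast replicate 2 (-2.10), and lower than in mature hepatocytes without hepatoblast replicate 1 (-1.70).

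Of the 4 pan-leukocyte genes, Lcp1 alone was called with all 12 libraries. It encodes L-plastin, an actin-bundling protein of leukocytes, and was at 61.8, 16.7, 15.4 and 13.7 CPM in hepatoblasts, 41.1, 35.1, 19.1 and 21.7 in Diff. hepatocytes and 141, 134, 138 and 172 in mature hepatocytes. The mature libraries stood above all others and differed little among themselves, without the alternation of replicates 1 and 3 against 2 and 4 seen in most of the list. The log2 fold change was 2.44 ± 0.44 (adjusted p 0.000221, edgeR) against hepatoblasts, or 3.25 without hepatoblast replicate 1, and Diff. hepatocytes were lower than mature hepatocytes, at -2.32 ± 0.44 (adjusted p 0.000417). Ptprc, the leukocyte phosphatase CD45, was at 17.9, 4.81, 2.88 and 2.78 CPM in hepatoblasts, 5.75, 2.41, 0.577 and 0.789 in Diff. hepatocytes and 5.14, 3.14, 6.59 and 2.67 in mature hepatocytes. Those groups overlapped, and its adjusted p values were 0.0766, 0.390 and 0.310. Without hepatoblast replicate 1 and Diff. replicate 1 together, Ptprc was called lower in Diff. than in mature hepatocytes, at -1.77 (adjusted p 0.00525, edgeR). Coro1a, a coronin of the leukocyte cortex, was at 4.71 to 42.7 CPM in hepatoblasts and 1.93 to 4.14 in mature hepatocytes, which did not overlap but were not called (adjusted p 0.0138), except as lower without hepatoblast replicate 3 or 4 (-2.54 and -2.55). Laptm5, a lysosomal membrane protein of blood cells, had adjusted p values of 0.204 to 0.541.

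None of the 4 Fc receptor and adaptor genes passed the test, and their median log2 fold changes were -0.28, -0.66 and 0.38 in the 3 comparisons, beside -0.12, 0.44 and -0.58 for C1q. Fcgr1 and Fcgr3 encode receptors for IgG, and Fcer1g and Tyrobp encode adaptors with ITAM motifs. Fcgr3 was at 13.9, 2.54, 3.01 and 2.95 CPM in hepatoblasts, 12.4, 6.89, 1.47 and 2.81 in Diff. hepatocytes and 2.95, 1.60, 2.98 and 1.24 in mature hepatocytes. Tyrobp was at 17.1, 3.16, 3.63 and 3.18 CPM, then 10.1, 5.42, 1.29 and 2.12, then 5.14, 3.91, 5.78 and 3.23. Replicate 1 was the highest library of the hepatoblasts and of the Diff. hepatocytes in both, and the groups overlapped. Fcer1g ranged from 1.02 to 10.9 CPM and Fcgr1 from 0.178 to 4.84 CPM over the 12 libraries, and the smallest adjusted p among the 4 genes was 0.0875, 0.0957 and 0.0880 in the 3 comparisons. Spi1, the gene of the transcription factor PU.1 that myeloid cells require, was at 16.1, 3.40, 2.56 and 2.19 CPM in hepatoblasts, 7.35, 2.71, 0.666 and 1.43 in Diff. hepatocytes and 4.05, 1.93, 3.68 and 2.79 in mature hepatocytes. It overlapped across all groups, with adjusted p values of 0.248, 0.245 and 0.979.

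Of the 9 granule genes, 4 were called in the cultured cells against hepatoblasts, all lower (14.0% of all tested genes were). The 4 primary granule genes Mpo, Elane, Ctsg and Prtn3 fell in Diff. hepatocytes against hepatoblasts, and the 5 others, S100a8, S100a9, Ngp, Camp and Ltf, were not called, with adjusted p values of 0.0561 to 0.868. In mature hepatocytes all 9 fell against hepatoblasts (24.7% of all tested genes did). Against mature hepatocytes, S100a8, S100a9, Ngp and Ltf were higher in Diff. hepatocytes (20.2% of all tested genes were) and the other 5 were not called. The difference between the 4 primary granule genes and the other 5 was not tested. The median log2 fold changes of the 9 were -2.13 for Diff. hepatocytes against hepatoblasts, -6.62 for mature hepatocytes against hepatoblasts and 5.91 for Diff. against mature hepatocytes, the last 2 with Ctsg set at its bound. The summed CPM of the 9 genes was 527, 59.9, 36.7 and 39.1 in hepatoblasts, 159, 89.0, 7.91 and 27.1 in Diff. hepatocytes and 0.745 to 1.51 in mature hepatocytes. Hepatoblast replicate 1 therefore held more of these transcripts than the other 3 hepatoblast libraries together.

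The upstream stretches of the 4 primary granule genes are shown because each of their windows holds GAGGAAG, with capitals for GAGGAA or TTCCTC as above. They are chr11:87793534-87793580 for Mpo (plus strand), chr10:79886062-79886246 for Elane (plus strand), chr10:79879417-79879613 for Prtn3 (plus strand) and chr14:56102575-56102824 for Ctsg (minus strand), in GRCm38.p6. Each was ended before the next annotated exon base of the gene, 203, 65, 53 and 0 bases before the RefSeq start in that order. The Prtn3 stretch begins 4941 bases inside the annotated gene, in an intron of a longer transcript, and the other 3 lie upstream of every annotated exon of their gene.
Mpo: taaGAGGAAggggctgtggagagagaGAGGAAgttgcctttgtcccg
Elane: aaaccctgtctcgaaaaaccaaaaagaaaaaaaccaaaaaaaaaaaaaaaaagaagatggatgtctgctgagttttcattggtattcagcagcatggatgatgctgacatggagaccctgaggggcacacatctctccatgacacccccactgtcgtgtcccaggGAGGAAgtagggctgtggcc
Prtn3: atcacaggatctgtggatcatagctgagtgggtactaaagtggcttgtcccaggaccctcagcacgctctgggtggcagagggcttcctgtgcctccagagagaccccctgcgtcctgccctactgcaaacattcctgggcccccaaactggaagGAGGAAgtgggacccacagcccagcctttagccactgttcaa
Ctsg: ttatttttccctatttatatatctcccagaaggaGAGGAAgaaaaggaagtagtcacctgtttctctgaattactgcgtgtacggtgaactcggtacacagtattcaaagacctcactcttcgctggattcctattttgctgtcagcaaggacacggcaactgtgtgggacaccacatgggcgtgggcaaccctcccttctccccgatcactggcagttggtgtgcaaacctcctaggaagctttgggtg
Prtn3 and Elane are neighbours on chromosome 10, where the annotated gene bodies span chr10:79874476-79883174 and chr10:79886247-79888215.

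Mpo, myeloperoxidase, was at 203, 23.7, 13 and 14.0 CPM in hepatoblasts and at 3.76, 5.73, 0.711 and 2.37 in Diff. hepatocytes. In mature hepatocytes it rested on 1, 0, 1 and 1 counts, and the 3 groups did not overlap. It fell by 4.33 ± 0.90 on the log2 scale in Diff. hepatocytes (adjusted p 0.00105, edgeR), or by 2.41 without hepatoblast replicate 1 (adjusted p 0.000378). By summed counts scaled to depth, hepatoblasts held 1334 times the level of mature hepatocytes (95% counting interval 456 to 6471; adjusted p 4.76e-05). That ratio was 362 (124 to 1757) without hepatoblast replicate 1. Diff. against mature hepatocytes was not called (adjusted p 0.0171), with a ratio of 67.3 (22.8 to 328), but was called without hepatoblast replicate 1 (adjusted p 5.16e-05).

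Elane, neutrophil elastase, was at 25.7, 2.57, 1.75 and 1.96 CPM in hepatoblasts and 0.346, 0.775, 0 and 0.148 in Diff. hepatocytes, with 2 counts in all 4 mature libraries together. Ctsg, cathepsin G, was at 20.6, 3.05, 1.23 and 1.62 CPM in hepatoblasts and 0.130, 0.861, 0.0444 and 0.592 in Diff. hepatocytes, with no count in any mature library. Prtn3, proteinase 3, was at 38.4, 5.85, 2.95 and 3.38 CPM in hepatoblasts, 1.25, 2.41, 0.311 and 0.838 in Diff. hepatocytes and 3, 16, 4 and 4 counts in mature hepatocytes. In each of these genes all 4 hepatoblast libraries lay above all 4 Diff. libraries, and replicate 1 lay above the other hepatoblast libraries. The Diff. levels of Elane rested on 8, 18, 0 and 3 counts and those of Ctsg on 3, 20, 1 and 12. In Diff. hepatocytes against hepatoblasts, the log2 fold change was -4.61 ± 1.03 for Elane (adjusted p 0.00172, edgeR), -4.02 ± 1.08 for Ctsg (0.00863) and -3.38 ± 0.86 for Prtn3 (0.00419). Without hepatoblast replicate 1 the log2 fold changes were -2.67 for Elane (adjusted p 0.00162), -2.26 for Ctsg (0.0128, not called) and -1.73 for Prtn3 (0.0127, not called). Ctsg was also not called without hepatoblast replicate 2 or without any 1 of the 4 Diff. replicates (adjusted p up to 0.0249), nor Prtn3 without Diff. replicate 1, 3 or 4 (up to 0.0151). Without Diff. replicate 2, the log2 fold changes of Elane, Ctsg and Prtn3 were -5.56, -4.74 and -3.99.

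In mature hepatocytes Mpo, Elane and Ctsg lay below the floor of 3 counts per library, and Prtn3 lay at or above it with 3, 16, 4 and 4 counts. Hepatoblasts held 251 times the mature level of Elane (95% counting interval 69.4 to 2080; adjusted p 0.000326, edgeR). Ctsg was at least 34.9-fold lower in mature hepatocytes, taking a floor of 3 counts per library (adjusted p 0.00115). Prtn3 fell by 4.87 ± 1.00 on the log2 scale (adjusted p 0.000638). All 4 were still called without hepatoblast replicate 1, with a ratio of 66.7 for Elane (18.2 to 555), a fall of at least 10.4-fold for Ctsg and a log2 fold change of -3.24 for Prtn3. Prtn3 was at -5.76 without mature replicate 2, which held 16 of its counts.

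S100a8 and S100a9 encode the 2 chains of calprotectin and lie on chromosome 3 at chr3:90668978-90670035 and chr3:90692632-90695721. S100a8 was at 64.7, 5.79, 3.98 and 4.77 CPM in hepatoblasts, 40.3, 20.1, 1.78 and 6.85 in Diff. hepatocytes and 0.480, 0.0642, 0.292 and 0.0621 in mature hepatocytes. S100a9 was at 83.7, 7.85, 6.51 and 5.47 CPM, then 52.1, 26.8, 2.62 and 8.58, then 0.343, 0.257, 0.233 and 0.0621. In both genes mature hepatocytes were separate and low, while the hepatoblast and Diff. groups overlapped, with replicate 1 high in each. S100a8 fell by 6.45 ± 1.47 in mature hepatocytes (adjusted p 0.00142, edgeR) and S100a9 by 6.84 ± 1.47 (0.000912), or by 4.43 and 4.87 without hepatoblast replicate 1. Diff. hepatocytes stood above mature hepatocytes by 6.25 ± 1.48 (0.00217) and 6.64 ± 1.48 (0.00141), or 5.41 and 5.81 without Diff. replicate 1. Without mature replicate 1 the S100a8 values were -7.08 and 6.87.

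Ngp, a neutrophil granule protein related to cathelicidins, was at 40.6, 4.36, 2.85 and 2.92 CPM in hepatoblasts, 35.3, 18.2, 1.07 and 4.39 in Diff. hepatocytes and 0.206, 0.128, 0.350 and 0.0621 in mature hepatocytes. Ltf, lactoferrin, was at 33.2, 5.31, 3.34 and 3.71 CPM, then 23.1, 12.6, 0.933 and 3.11, with 5 counts in all 4 mature libraries. Both overlapped between hepatoblasts and Diff. hepatocytes and were separate from mature hepatocytes. Ngp fell by 6.03 ± 1.49 in mature hepatocytes against hepatoblasts (adjusted p 0.00246, edgeR), by 4.13 without hepatoblast replicate 1, and was not called without mature replicate 4 (adjusted p 0.0103). Hepatoblasts held 144 times the mature level of Ltf (95% counting interval 61.4 to 443; adjusted p 0.000703) and Diff. hepatocytes 130 times (55.3 to 400; adjusted p 0.00111). The Ltf log2 fold changes were -7.08 and 6.88, or -5.62 without hepatoblast replicate 1 and 6.04 without Diff. replicate 1, and Ngp stood 6.25 ± 1.49 above mature hepatocytes in Diff. hepatocytes (adjusted p 0.00228), or 5.35 without Diff. replicate 1.

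Camp, the cathelicidin antimicrobial peptide, was at 17.0, 1.46, 1.07 and 1.29 CPM in hepatoblasts and 2.46, 1.55, 0.444 and 0.247 in Diff. hepatocytes, with 3 counts in all mature libraries. Hepatoblast replicate 1 was far above the other 7 of these libraries, and the 2 groups overlapped (adjusted p 0.0561). Hepatoblasts held 109 times the mature level (95% counting interval 37.1 to 530; adjusted p 0.000894, edgeR), or 27.0 times (9.04 to 133) without hepatoblast replicate 1. Diff. against mature hepatocytes was not called (adjusted p 0.0215), with a ratio of 25.6 (8.53 to 126), but was called without hepatoblast replicate 1 (adjusted p 0.000655).

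**Figure D4:**
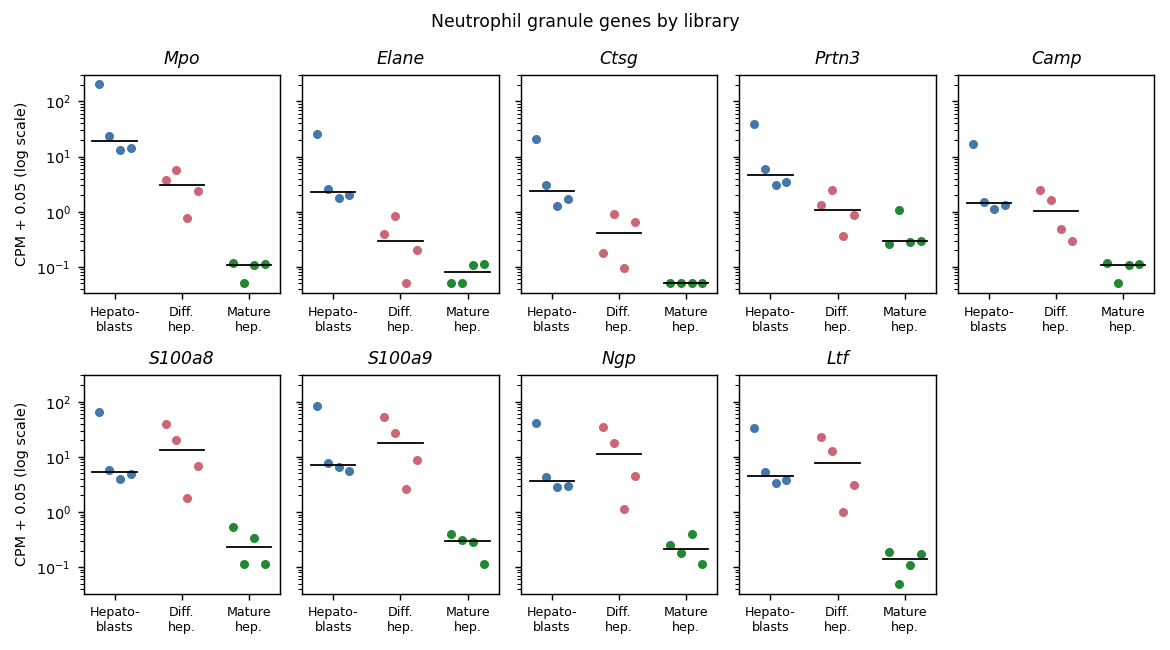
Level in CPM (y axis, log scale, 0.05 added) of the 9 granule genes in each library (points), with a line at the group median. Mpo lies between 13 and 203 CPM in hepatoblasts and at or below 5.73 in Diff. hepatocytes, whereas S100a8, S100a9, Ngp and Ltf overlap between those groups, and all 9 are at or below 1.03 CPM in mature hepatocytes.

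Hmox2, the constitutive haem oxygenase that most cells express, differed from the rest of the list in its small spread. It was at 20.4, 24.4, 25.6 and 23.6 CPM in hepatoblasts, 47.1, 54.4, 57.0 and 53.5 in Diff. hepatocytes and 36, 38.1, 40.7 and 38.2 in mature hepatocytes. Hepatoblast replicate 1 was the lowest of its group here, the one gene of the 36 for which it was not the highest, and the 3 groups did not overlap. Hmox2 rose in Diff. hepatocytes against hepatoblasts by 1.17 ± 0.09 on the log2 scale (adjusted p 1.46e-07, edgeR), or 0.85 and not called when libraries were scaled to their totals. This rise was also not called with glmTreat. The differences of 0.70 ± 0.09 (mature against hepatoblasts, adjusted p 8.98e-06) and 0.47 ± 0.09 (Diff. against mature, adjusted p 0.000391) were below the fold threshold. Exons of Cdip1 on the opposite strand cover 40.2% of the exon bases of Hmox2, and the strand setting of the count table is not given in the sources used here. The same limit holds for Csf1r (15.1%, with Hmgxb3), Mpo (15.0%, with Gm11505) and Prtn3 (9.18%, with Plppr3), and for smaller shares of Lcp1 and Coro1a.

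Because the level of C1q differed several-fold among libraries of 1 group, counts of each gene were also set against the summed counts of C1qa, C1qb and C1qc in the same library, a scale chosen after the data were seen. The summed C1q counts were 2481, 626, 801 and 770 in hepatoblasts, 1990, 809, 206 and 287 in Diff. hepatocytes and 1053, 642, 1252 and 639 in mature hepatocytes. On that scale the replicates of the 2 uncultured groups lay close together for the Kupffer cell genes other than Vsig4, and those of Diff. hepatocytes did not. Cd5l was at 98.6 to 106 counts per 100 C1q counts in hepatoblasts, 6.88 to 20.9 in Diff. hepatocytes and 75.2 to 86.3 in mature hepatocytes. Timd4 was at 11.9 to 13.9, 0 to 0.485 and 5.79 to 7.79 per 100 in the same order. Both genes separated all 3 groups here, with hepatoblasts highest, although the CPM of hepatoblasts and mature hepatocytes had overlapped.

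Clec4f per 100 C1q counts was 6.07 to 8.18 in hepatoblasts, 0.618 to 4.37 in Diff. hepatocytes and 83.2 to 95.4 in mature hepatocytes. Marco ran the other way between the fresh preparations, at 81.7 to 106 in hepatoblasts and 8.07 to 12.5 in mature hepatocytes, with 3.37 to 15.3 in Diff. hepatocytes. Vsig4 was at 0 to 0.25, 2.84 to 6.27 and 14.2 to 17.1 per 100, and Cd163 at 0.160 to 0.909, 9.70 to 13.5 and 12.8 to 21.2. Relative to C1q, then, the adult preparation was high in Clec4f, Vsig4 and Cd163 and low in Marco, and the embryonic one the reverse.

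Csf1r per 100 C1q counts was 57.9 to 71.8, 51.4 to 89.8 and 45.9 to 53.8, the narrowest range over the 12 libraries, as highest over lowest, among the 10 genes plotted. Adgre1 was at 39.3 to 49.2 in hepatoblasts, 16.7 to 22.3 in Diff. hepatocytes and 12.2 to 14.9 in mature hepatocytes, so the groups separated on this scale and not in CPM. Mrc1 was at 30.3 to 56.2, 68.0 to 85.0 and 51.4 to 81.7, which placed Diff. hepatocytes above hepatoblasts. S100a8, by contrast, still ranged from 15.4 to 80.8 within hepatoblasts and from 19.4 to 57.8 within Diff. hepatocytes.

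Of the 33 genes other than C1q, Diff. hepatocytes lay above all hepatoblast libraries for 3 on this scale (7.06% of all tested genes) and below for 12 (4.87%), with 18 overlapping. Mature hepatocytes lay above hepatoblasts for 4 (10.1%) and below for 27 (26.5%). Diff. hepatocytes lay above mature hepatocytes for 18 (21.2%) and below for 5 (4.48%). Dividing by C1q counts that differ several-fold within a group spreads any gene that does not vary with C1q. Of all tested genes, 88.1% overlapped between Diff. hepatocytes and hepatoblasts on this scale. The counts beside these shares are therefore a description and not a measure of enrichment. Slc11a1, Cd14 and Hmox2 did not follow C1q and varied among the Diff. libraries by up to 10.5, 7.34 and 11.4 times on this scale.

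**Figure D5:**
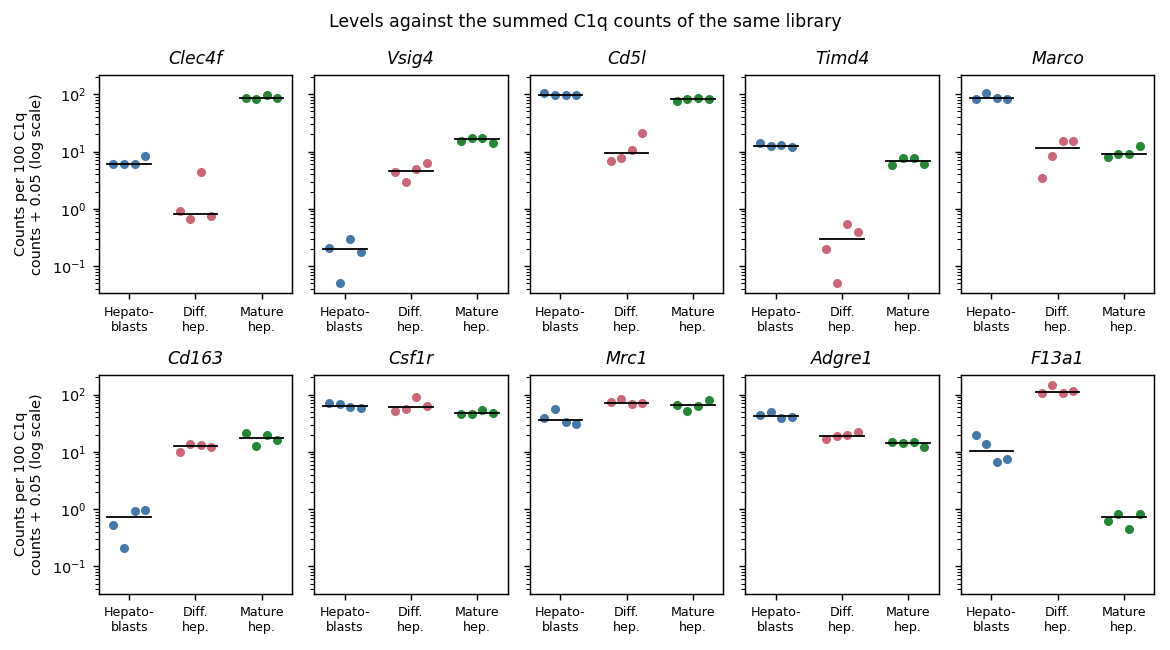
Counts per 100 summed C1q counts (y axis, log scale, 0.05 added) of 10 genes in each library (points), with a line at the group median. Clec4f lies at 83.2 to 95.4 in mature hepatocytes and 6.07 to 8.18 in hepatoblasts, while Csf1r lies between 45.9 and 89.8 in all 12 libraries.

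Other genes of the same pathways and cells were counted with the same calls, in lists chosen with earlier results of these data known. Their counts are to be read beside all tested genes, of which 14.9% rose and 14.0% fell in Diff. hepatocytes against hepatoblasts. In mature hepatocytes against hepatoblasts, 20.1% rose and 24.7% fell. A share near these, such as 3 and 3 of 16 or 2 and 2 of 14 in Diff. hepatocytes, is no result about a list. Of 8 genes of haem and iron recycling, the work of red pulp and liver macrophages, 1 rose and 3 fell in Diff. hepatocytes against hepatoblasts, and 4 rose and 2 fell in mature hepatocytes. Hmox1, the inducible haem oxygenase, fell by 1.88 in Diff. hepatocytes, from 94.6 to 149 CPM in hepatoblasts to 26.2 to 47.4, and Fth1, the ferritin heavy chain, rose by 1.64. Spic, the transcription factor of haem-recycling macrophages, fell by 5.74 in Diff. hepatocytes. Of 16 myeloid transcription factors and growth factors, 3 rose and 3 fell in Diff. hepatocytes and 8 rose and 5 fell in mature hepatocytes. Cebpa, which hepatocytes also express, was at 655 to 1048 CPM in mature hepatocytes and 109 to 189 in hepatoblasts. Of 12 ITAM signalling genes, none was called in Diff. hepatocytes against hepatoblasts.

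Of 14 phagocytosis and integrin genes, 2 rose and 2 fell in Diff. hepatocytes, among them Gas6, a bridging ligand for dying cells, up by 3.76, and its receptor Mertk, down at -1.82. Of 8 lysosomal proteases 4 rose and none fell, and Ctsl, cathepsin L, rose by 2.57 on the log2 scale. The 5 MHC class II genes all rose in mature hepatocytes against hepatoblasts and none was called in Diff. hepatocytes. Their invariant chain Cd74 was at 0.680 to 1.64 CPM in hepatoblasts, 0.345 to 0.562 in Diff. hepatocytes and 14.9 to 57.9 in mature hepatocytes.

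The monocyte list, 6 genes, had 1 that rose and 2 that fell in Diff. hepatocytes against hepatoblasts. Its median log2 fold change was -1.37, opposite in direction to the gene that rose. The one that rose was F13a1, coagulation factor XIII A of monocytes, at 15.7, 2.51, 1.68 and 1.89 CPM in hepatoblasts, 90.3, 51.5, 9.86 and 16.1 in Diff. hepatocytes and 0.292 to 0.411 in mature hepatocytes (log2 fold change 2.94, adjusted p 0.0052, edgeR). Diff. replicates again ran from 1 and 2 down to 4 and 3. Per 100 C1q counts F13a1 was at 6.49 to 19.7 in hepatoblasts, 105 to 148 in Diff. hepatocytes and 0.399 to 0.782 in mature hepatocytes. Of the 10 tested other neutrophil genes, 2 rose in Diff. hepatocytes, Lcn2, which hepatocytes also make, by 5.54 and Chil3, a chitinase-like protein, by 6.52, from 0 to 0.355 CPM in hepatoblasts to 1.02 to 24.3.

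Markers of further blood and liver cells moved as well. All 10 erythroid genes fell in Diff. hepatocytes against hepatoblasts, and 9 fell in mature hepatocytes while Alas2, the erythroid form of the enzyme that starts haem synthesis, rose. None of 6 megakaryocyte genes was called in Diff. hepatocytes and all 6 fell in mature hepatocytes. Of 8 endothelial genes, 6 fell in Diff. hepatocytes and 4 rose in mature hepatocytes. Of 9 mesenchymal genes, 3 rose in Diff. hepatocytes and 7 fell in mature hepatocytes. Of 6 tested lymphoid genes, 4 fell in Diff. hepatocytes and 1 in mature hepatocytes, and of 5 mast cell and basophil genes none was called in Diff. hepatocytes. Their part in the levels of the 36 genes was not tested.

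The genes whose profile over the 12 libraries lay closest to C1q were Ifi207, Vsir, Siglec1, Cd84, Ctss, Themis2, Clec1b, Slc43a2, Cybb and Ifi204, out of 13117 genes. The measure was the root mean square difference of log2 CPM centred on each gene's mean, which was 0.285 to 0.438 for these 10. Siglec1, the sialoadhesin of tissue macrophages, and Cybb, the heavy chain of the phagocyte oxidase, are among them. Closest to the 4 primary granule genes were Gfi1b, Slc14a1, Myb, Prg2, Rab44, Pcyt1b, Prkar2b, Gata1, Tmod1 and Mfsd2b, at 0.526 to 0.825. Gata1 and Gfi1b are regulators of the erythroid and megakaryocytic lineages, and Prg2 is a granule protein of eosinophils.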

How the data were processed

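Poly(A) RNA of 12 libraries, 4 in each of 3 groups, was sequenced strand-specifically in single reads. The authors mapped reads to GRCm38 with STAR 2.5.2b, counted them per gene of the Ensembl annotation with the same tool, and deposited 1 table of raw counts, as the study's methods state. FastQC 0.11.2, Picard 2.10.2 and DESeq2 1.22.2 are also named in the submitters' processing notes. Rows and columns were taken as deposited, and every row names a gene.

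Gene names came from GENCODE M21 (GRCm38), which named 53620 of the 53715 identifiers. The 17779 genes that exceeded 10 counts somewhere were fitted over all 12 libraries by group with edgeR 4.0.16 (R 4.3.3), TMM scaling and the quasi-likelihood test. A call needed an adjusted p (Benjamini-Hochberg) below 0.01 together with a log2 fold change beyond 1 either way, as in the study. SE is the log2 fold change divided by the square root of F. CPM used TMM library sizes. The fit was tested on simulated data. Replicates are biological per the study's methods, and no 2 libraries were alike within sampling noise.

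Ratios of few counts carry exact 95% intervals, which cover counting error only, as does the floor of 3 counts per library. Depth was 19581551 to 25216977 counts per library. Exon sequence shared in stretches of 75 bases was 5.96% for Lyz2 (with Lyz1), 5.42% for Fcgr3 (with Fcgr2b) and 0.849% for Lcp1, and 0 for the other 33 genes.

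The 36 genes and all lists were chosen with earlier results of these data known. All 36 are accounted for by role, and other lists are given by counts with at most 4 names each. The most alike genes are the 10 outside the 36 with a mean of at least 1 CPM and the smallest root mean square difference. Counts per 100 C1q counts were chosen after the data were seen. Alternatives were the DESeq2 1.42.0 Wald test, glmTreat, an adjusted p under 0.05 with no fold threshold, other scalings and filters, the 8 libraries compared, a replicate block, and leaving out libraries.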

Additional observations from a re-analysis of the deposited data

Results flagged for a closer look

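The highest or lowest library of a gene was taken as far from the rest where Dixon's test at the 95% level, for 4 samples, singled it out. Of 102 sets of 4 libraries 32 had such a library. The test gives about 1 in 20 for normally distributed values, and its rate over all tested genes was not examined. Of the 32, 30 were hepatoblast replicate 1, the library in which the erythroid genes were also high, with a summed CPM of 2686 beside 317 to 533 in the other 3. The genes are not independent of each other, since they share that library.

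The CPM in that library was 17.9 for Ptprc, 42.8 for Laptm5, 42.7 for Coro1a and 61.8 for Lcp1 among the pan-leukocyte genes. Among macrophage genes it was 34.8 for Adgre1, 57.4 for Csf1r, 20.1 for Cd14, 31.1 for Mrc1, 4.29 for Aif1 and 67.1 for Lyz2. Among Kupffer cell and C1q genes it was 84.9 for Cd5l, 11.2 for Timd4, 66.1 for Marco, 20.2 for C1qa, 32.9 for C1qb and 27.0 for C1qc. It was 4.84 for Fcgr1, 13.9 for Fcgr3, 10.9 for Fcer1g, 17.1 for Tyrobp and 16.1 for Spi1. The granule genes in this library were at 203 CPM for Mpo, 25.7 for Elane, 20.6 for Ctsg, 38.4 for Prtn3, 64.7 for S100a8, 83.7 for S100a9, 40.6 for Ngp, 17.0 for Camp and 33.2 for Ltf.

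Vsig4 in Diff. hepatocyte replicate 1 stood at 3.67 CPM, above the other 3 Diff. libraries. Prtn3 in mature replicate 2 stood at 1.03 CPM, above the other 3 mature libraries.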

How the results depend on the processing

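In Diff. hepatocytes against hepatoblasts, 4 of the 36 genes were higher and 8 lower. The higher count was 2 with the fold threshold inside the test (glmTreat) and 2 with library totals in place of TMM, and the lower count was 5 with glmTreat. The calls lost with glmTreat were those of Slc11a1, Clec4f, Ctsg, Prtn3 and Hmox2. In mature hepatocytes against hepatoblasts glmTreat lost Slc11a1 alone. The DESeq2 Wald test gave Elane no adjusted p in any of the 3 comparisons. In Diff. against mature hepatocytes, where 5 were lower, the count was 8 at an adjusted p under 0.05 with no fold threshold, 8 with a replicate block and 12 without hepatoblast replicate 1 and Diff. replicate 1 together. Leaving out 1 library at a time gave 4 to 5 higher and 6 to 8 lower in Diff. hepatocytes against hepatoblasts, 4 higher and 11 to 13 lower in mature hepatocytes against hepatoblasts, and 6 to 8 higher and 5 to 7 lower in Diff. against mature hepatocytes. The other settings kept each count within 1.5 times, and no called fold change turned its sign in any setting run. The cause of these changes was not tested. Of 69 fold changes not called, 42 turned sign under some setting and 18 were called under some setting. Library totals moved the median log2 fold change of all tested genes by -0.32, -0.85 and 0.53 in the 3 comparisons.

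The replicate numbers were not taken to pair the libraries, since not every same-number correlation passed 0.1. They were 0.324, -0.0589, 0.246 and 0.184 for replicates 1 to 4 (hepatoblasts and Diff. hepatocytes), -0.0309 to 0.0923 (hepatoblasts and mature hepatocytes) and -0.0813 to 0.0865 (Diff. and mature hepatocytes), and 2, 2 and 0 of 4 libraries lay closest to their own number. With the replicate block, Ctsg was not called (adjusted p 0.0103, edgeR) and Adgre1 and Aif1 were called lower in Diff. hepatocytes against hepatoblasts, Mrc1 was called higher in mature hepatocytes against hepatoblasts, and in Diff. against mature hepatocytes Aif1, Marco and C1qa were called lower and Mpo and Camp higher.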
